A study of Mus musculus with 2 samples.

Results

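Chromosome 11 carried 515 of the 6505 peaks listed for Flag-tagged Hes5 in mesodermal derivatives of mouse embryonic stem cells. The members were chosen by chromosome name from the peak list of the library with doxycycline, and all 515 were kept without a filter. The chromosome itself was chosen by its measured peak density, which was known beforehand. In this assay, ChIP-seq, an antibody recovers a protein together with the fixed DNA it sits on, and that DNA is sequenced to locate the sites. Cells of the AinV/Bry-GFP ESC line were grown into embryoid bodies, sorted at day 3.75 for green fluorescent protein (Bry-GFP), and cultured for 48 h in StemPro-34 medium with doxycycline (group Flag-Hes5, 1 library) or without it (control, 1 library). The labels name anti-Flag antibody for the pulldown and the cells without doxycycline as its negative control. The tagged protein was made from doxycycline-dependent expression in 1 cell line, so its level need not be that of the cell's own Hes5. Values of the control library were not analysed here, so signal of Flag-Hes5 and background in the pulldown cannot be told apart within the list.

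Hes5 is a basic helix-loop-helix transcriptional repressor and an effector of Notch signalling, the pathway by which a receptor on 1 cell is activated by a ligand on its neighbour. Proteins of the Hes family bind short DNA motifs and recruit Groucho-family corepressors, and such motifs are often found near gene starts. Mouse chromosome 11 is known as a gene-rich chromosome, much of which corresponds to human chromosome 17. Coordinates count from 1 on mm9, which the submitters' processing notes give as the build. Sequence and annotation of mm9 were not used here, so peaks are named by position, and no peak was assigned to a gene, exon, intron or promoter.

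Because the chromosome was chosen for it, the density is a description without a test. Its peaks lay between 3026802 and 121564048, a listed span of 119 Mb, at 4.34 peaks per Mb. The other 18 autosomes ranged from 1.82 to 3.71 peaks per Mb, and pooled they had 2.62. Chromosome 11 was therefore the densest autosome in the list, at 1.66 times the pooled density of the others. Only chromosome 2, which is longer, had more peaks in all, 534. The summed width of the chromosome 11 peaks was 235 kb. This came to 1984 bp of peak per Mb, against 839 to 1741 bp on the other autosomes.

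The higher density had a component from occupied sequence and another from crowding. Of the 119 windows of 1 Mb from the first to the last peak, 93 held at least 1 peak, which is 78.2%, against 69.2% on the other autosomes pooled. By this share chromosome 11 ranked 4 among the 19 autosomes. An occupied window held 5.54 peaks on average, against 3.76 on the other autosomes pooled and 4.81 on the next highest autosome. Crowding within occupied windows thus set chromosome 11 further apart from the other autosomes than the share of windows occupied did. Windows with 5 or more peaks made up 36.1% of its windows, against 20.6% on the other autosomes pooled and 32.6% on chromosome 17, the next highest. Windows with more than 9 peaks made up 12.6%, against 4.16% on the other autosomes pooled. This last share was not compared with single autosomes.

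**Figure D1:**
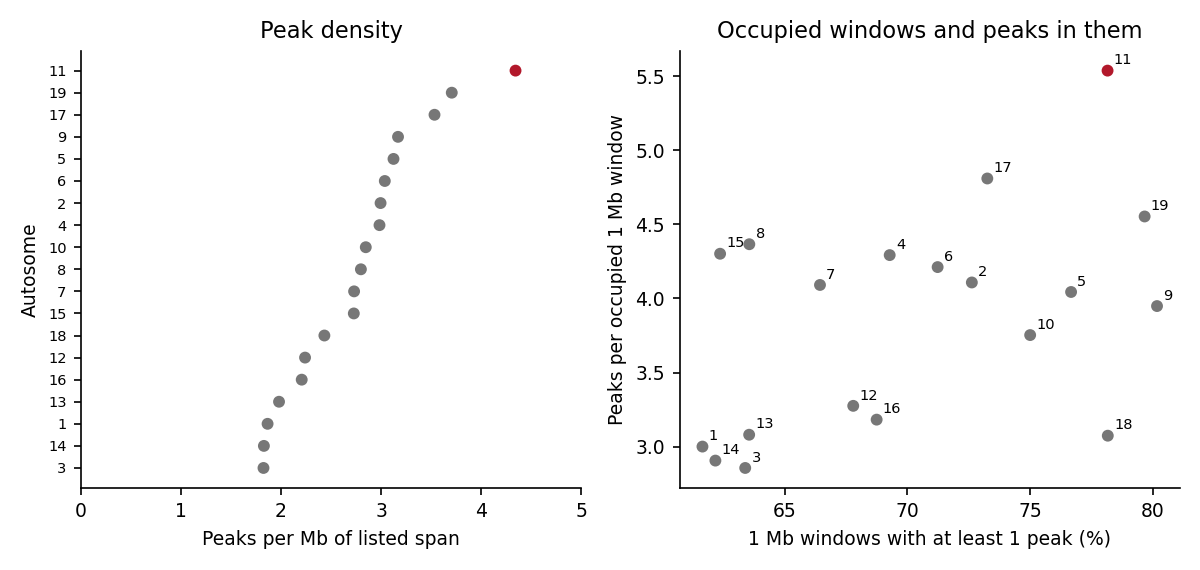
Left, peaks per Mb of listed span (x axis) for each of the 19 autosomes (y axis), 1 point per chromosome. Right, the percentage of 1 Mb windows with at least 1 peak (x axis, which does not start at 0) against the mean number of peaks per occupied window (y axis, which does not start at 0). Chromosome 11, in red, is rightmost on the left with 4.34 and topmost on the right with 5.54.

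Along the chromosome the peaks formed a short dense beginning, a sparse stretch, and a long dense remainder. From 3 to 10 Mb there were 40 peaks, or 5.71 per Mb. Of these, 38 lay from 3 to 7 Mb, at 9.5 per Mb, so the peaks already thinned out before the cut at 10 Mb. From 10 to 45 Mb there were 51 peaks, or 1.46 per Mb. From 45 Mb to the end of the last occupied window, at 122 Mb, there were 424, or 5.51 per Mb, which is 82.3% of the chromosome's peaks. These 3 stretches were drawn after the positions were seen, and the sparse one fell below the density of every other autosome taken whole.

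In windows of 5 Mb the counts ran from 2 to 50, with a median of 20 over 25 windows, the first of which lay partly before the first peak and the last partly beyond the last. The window from 115 to 120 Mb was the fullest, with 50 peaks, and 95 to 100 Mb followed with 44. A window this full was not peculiar to chromosome 11, as the fullest on chromosomes 10 and 17 also held 50. The windows from 50 to 55 Mb and from 75 to 80 Mb each held 38, and 100 to 105 Mb held 36. These 5 windows together held 206 peaks, or 40% of the chromosome. At the other end, 5 windows held fewer than 6 peaks each and 16 together, and all of them lay between 10 and 45 Mb. Within that sparse stretch, 20 to 25 Mb stood out with 21 peaks and 30 to 35 Mb with 14. Beyond 50 Mb the window from 110 to 115 Mb was the emptiest, with 8 peaks, and it lay directly before the fullest. The density did not rest on the fullest windows alone: without 115 to 120 Mb and 95 to 100 Mb the chromosome still had 1.48 times the density of the other autosomes. The other autosomes kept all their windows in this comparison, and the ratio was lower than the 1.66 of the whole chromosome.

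**Figure D2:**
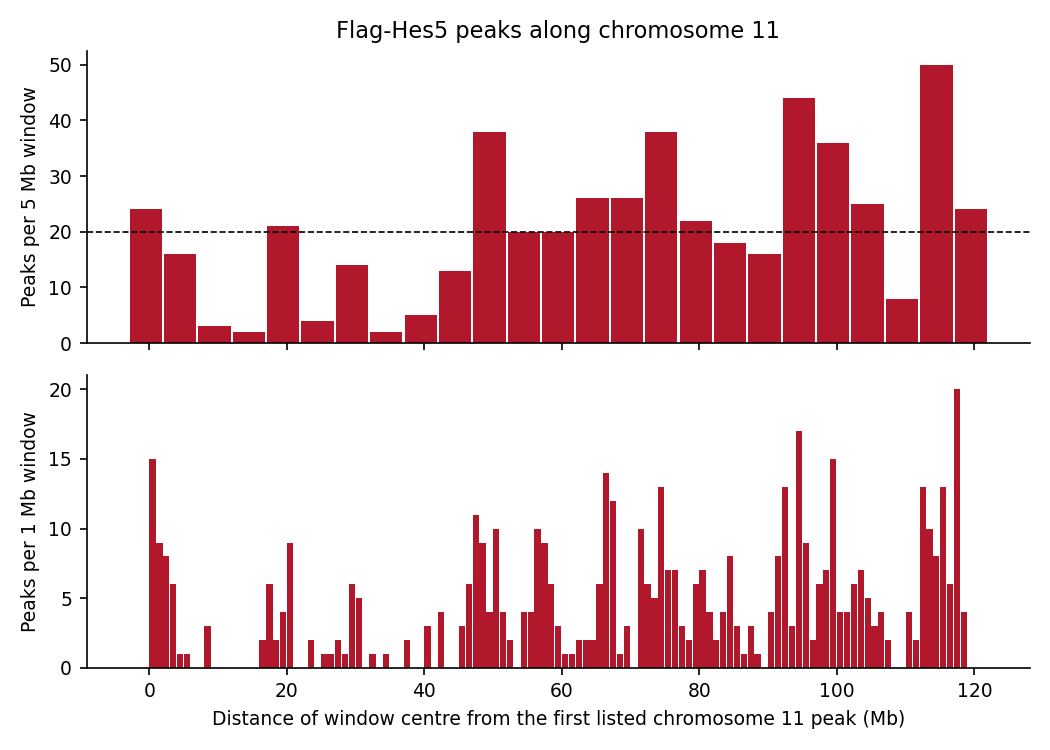
Number of peaks in windows of 5 Mb (top, the dashed line marks the median of 20) and 1 Mb (bottom) along chromosome 11, with the x axis giving the distance of the window centre from the first listed peak in Mb. Most windows from 10 to 45 Mb on the chromosome are low, except the 5 Mb windows with 21 and 14 peaks, and the tallest bars are 50 peaks (top) and 20 peaks (bottom).

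The windows of 1 Mb resolved the dense parts further. The window that starts at 120 Mb held 20 peaks and the window from 97 to 98 Mb held 17, and of 2400 autosomal windows 3 and 7 held more. The windows from 3 to 4 Mb and from 102 to 103 Mb held 15 each. In all, 15 windows held 10 or more peaks, and together they held 196 peaks, or 38.1%. Consecutive windows with at least 5 peaks each formed 16 stretches, and the longest were 6 Mb long. The stretch that starts at 115 Mb held 70 peaks and the stretch from 74 to 80 Mb held 48. The dense window at 120 Mb was thus the last part of a longer crowded stretch. The window from 97 to 98 Mb shared its stretch of 26 peaks only with the next window.

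Peaks in the window at 120 Mb were spread over it rather than stacked at 1 place. Neighbouring centres there lay a median of 39.96 kb apart and at most 125 kb, and 11 of the 20 had another centre within 10 kb. On the whole chromosome 120 of the 515 peaks, or 23.3%, had such a neighbour, and on the other autosomes 22.8%. Scores in the list are the authors' own, on a scale that the labels do not state, and they are used first to rank and describe peaks and then examined for how they were composed. In this window they ran from 141 to 1199, with a median of 265. The strongest peak ran from 120494092 to 120494852, with a score of 1199 and a width of 761 bp. Next came the peak from 120851653 to 120852399 with a score of 564, and the peak from 120459083 to 120459970 with a score of 541. Of the 20 peaks, 1 thus scored above 1000 and 3 above 500, against 3.11% and 17.1% of all peaks of the chromosome.

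The window from 97 to 98 Mb likewise held 1 peak with a score above 1000, and 2 above 500, but fewer close neighbours. Its scores ran from 136 to 1282, with a median of 254, and the median spacing was 43.9 kb. The strongest peak ran from 97011714 to 97012612 with a score of 1282 and a width of 899 bp. It was followed by peaks from 97436027 to 97436897 with a score of 536 and from 97605533 to 97606006 with a score of 494. The window held no pair of centres within 1 kb, whereas 4 peaks of the window at 120 Mb had such a neighbour. That contrast depends on the window edge, because the closest pair of the whole chromosome began just past 98 Mb, at 98010443. Another centre lay within 10 kb for 4 of the 17 peaks from 97 to 98 Mb, near the share of the whole chromosome. In the window at 120 Mb this held for 11 of 20. In both windows the median score was close to the 246 of the whole chromosome.

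Gaps of more than 1 Mb between neighbouring peaks numbered 18 and summed to 44.1 Mb, or 37.2% of the listed span. The longest, of 7.89 Mb, ran from 11936936 to 19824464. It lay between a peak from 11936596 to 11936935 with a score of 182 and a peak from 19824465 to 19824846 with a score of 252. The second, of 3.29 Mb, ran from 37050108 to 40344389, between a peak from 37049740 to 37050107 (score 175) and a peak from 40344390 to 40344737 (score 142). The third, of 3.06 Mb, ran from 8524808 to 11585746, between the stronger peaks from 8523926 to 8524807 (score 710) and from 11585747 to 11586215 (score 354). The fourth, of 2.77 Mb from 45869883 to 48639727, lay between a peak from 45869369 to 45869882 (score 268) and a peak from 48639728 to 48640125 (score 168). The fifth, of 2.76 Mb from 40568745 to 43323769, lay between a peak from 40568413 to 40568744 (score 130) and a peak from 43323770 to 43324104 (score 183). Of the 18 gaps, 12 began before 50 Mb. Among the gaps described, only the third was bordered by a score above the chromosome's upper quartile of 379. Its other bordering score, 354, lay below that quartile.

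Other autosomes also had long gaps, the longest of each running from 2.95 to 13.1 Mb, and 7 of the 18 had a longer one than chromosome 11. What differed in the values was how often steps were long. Steps of more than 1 Mb between centres were 3.50% of the 514 on chromosome 11 and 10.0% of the 5918 on the other autosomes. Only 3 peaks, 0.583%, had no other centre within 1 Mb (95% Wilson interval 0.198% to 1.70%), against 2.36% elsewhere (2.002% to 2.78%). All 3 lay before 45 Mb, and their scores were 710, 391 and 175. Long steps are tied to the density for which the chromosome was chosen, so these contrasts are descriptions without a test. The intervals treat peaks as independent and cover counting error only.

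The median step between centres was 95.04 kb on chromosome 11 (95% binomial interval of the median 84.3 to 113 kb) and 132 kb on the other autosomes (127 to 137 kb). Chromosome 15 had a slightly smaller median of 94.7 kb, so this value was not peculiar to chromosome 11. Spacing too is tied to the density for which the chromosome was chosen, so separate intervals are no test of a difference. They treat steps as independent. At the short end the distributions met. Steps of at most 1 kb were 7.59% of all steps on chromosome 11 and 7.87% elsewhere, and steps from 1 to 10 kb were 4.86% and 4.63%. From 10 to 100 kb the shares were 38.1% and 30.3%. Steps from 100 kb to 1 Mb were 45.9% and 47.2%, but the upper quartile of all steps was 202 kb against 350 kb. The tighter spacing of chromosome 11 thus lay in more steps of 10 to 100 kb and fewer long steps, not in pairs of adjoining peaks.

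**Figure D3:**
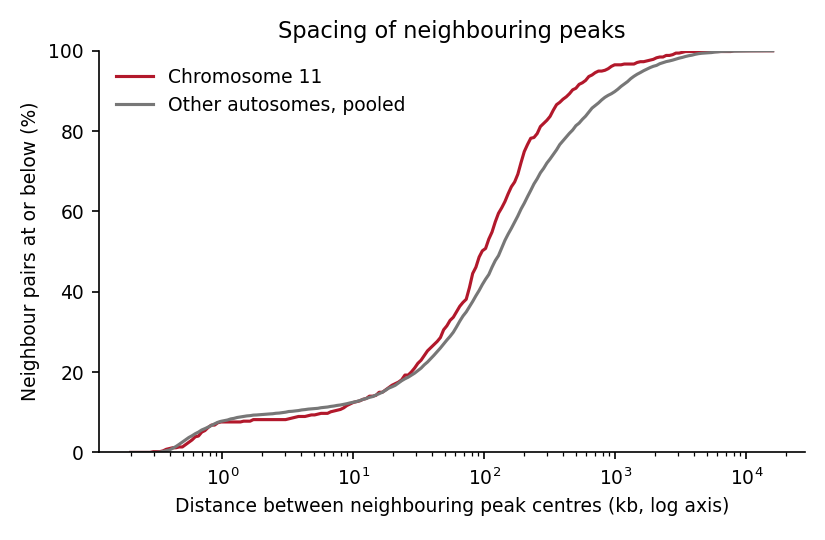
Cumulative percentage of neighbouring peak pairs (y axis) at or below a given distance between centres (x axis, kb, log axis), for chromosome 11 (red) and the other autosomes pooled (grey). The curves run close together up to about 20 kb and then part, with medians of 95.04 and 132 kb.

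Pairs of centres within 1 kb numbered 39 and involved 76 peaks, 2 of which had such a neighbour on both sides. The space between the edges of these pairs ranged from 2 to 588 bp, with a median of 135 bp, and was at most 100 bp in 16 pairs. In the closest pair the peak from 98010443 to 98010943 (score 303) ended 2 bp before the peak from 98010946 to 98011347 (score 887). In the next, 9 bp separated the peak from 102157160 to 102157688 (score 290) from the peak from 102157698 to 102158474 (score 1047). In the third, 11 bp separated the peak from 115396882 to 115397641 (score 375) from the peak from 115397653 to 115397973 (score 133). The higher score of a pair was on the left in 18 and on the right in 21. The higher score was a median 1.75 times the lower one, against 1.79 times for the 475 neighbouring pairs further apart. Members of such pairs were therefore no more alike in score than neighbours at a distance. Paired peaks had a median score of 241 and a median width of 426 bp. The 395 peaks with no centre within 10 kb had 255 and 405 bp.

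In strength the chromosome had a median near that of the other autosomes, and a low place among them for its quartiles and its share of strong peaks. The median score was 246 (95% binomial interval of the median 229 to 263), against 248 on the other autosomes (245 to 255), and 11 autosomes had a higher median. The quartiles were 168 and 379, against 177 and 406, and 17 and 16 of the other 18 autosomes had higher ones. A score above 1000 was given to 16 peaks, or 3.11% (95% Wilson interval 1.92% to 4.99%), against 3.96% elsewhere (3.49% to 4.49%), and 15 autosomes had a higher share. Scores under 100 were given to 19 peaks, or 3.69% (2.37% to 5.69%), against 2.76% (2.38% to 3.21%). These intervals treat peaks as independent and cover counting error only, and no test of a difference in score was made. Scores also did not follow crowding: over the 93 occupied 1 Mb windows, which share 1 library, Spearman's rho between the number of peaks and their median score was -0.03. Among the 19 windows of 5 Mb with at least 10 peaks, the median score ran from 171 at 60 to 65 Mb to 377 at 20 to 25 Mb.

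The 15 strongest peaks were scattered. They fell in 13 different windows of 5 Mb, and 3 of the 15 had another centre within 10 kb, against 23.3% of all 515 peaks. Beyond 50 Mb lay 13 of them, but most peaks of the chromosome lay there too: 82.3% of the 515 lay beyond 45 Mb. The strongest ran from 23206112 to 23206589 with a score of 2883, and ranked 11 in the whole list. It lay between 10 and 45 Mb, but in a 1 Mb window with 9 peaks, and the next peak began 349 bp beyond its end. The next ran from 118109583 to 118110033 in the densest 5 Mb window, with a score of 2317. Both were narrow for their strength, at 478 and 451 bp, ranking 175 and 205 by width among the 515. The third ran from 57822115 to 57823526 with a score of 1916, and at 1412 bp it was the widest peak of the chromosome. The fourth ran from 69446264 to 69446909 with a score of 1743. The fifth, from 106889038 to 106889667, scored 1388. Places 6 and 9 were the leading peaks of the dense windows described above.

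The remaining strong peaks were close in score. Those from 54679796 to 54680499 (score 1210) and from 70658082 to 70658810 (score 1205) took places 7 and 8. The peaks from 87800417 to 87801118 (score 1142), from 32354988 to 32355700 (score 1132) and from 80290042 to 80290736 (score 1095) took places 10 to 12. Place 13, with a score of 1047, was the right member of the pair separated by 9 bp. The peaks from 106781443 to 106782411 (score 1033) and from 105450636 to 105451543 (score 1009) completed the 15. Their widths lay between 695 and 969 bp, apart from those of the 4 narrower peaks named above and the widest.

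**Figure D4:**
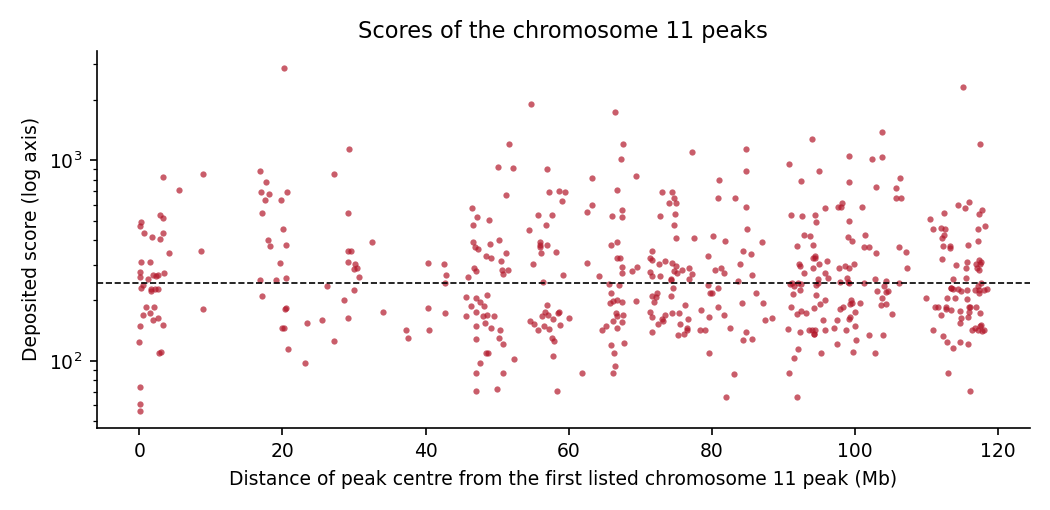
Deposited score (y axis, log axis) of each of the 515 chromosome 11 peaks against the distance of its centre from the first listed peak (x axis, Mb), 1 point per peak, with the dashed line at the median of 246. Points lie on both sides of the line in dense and sparse parts, and the highest point is 2883.

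Widths had a median of 405 bp with quartiles of 343 and 523 bp, against a median of 408 bp elsewhere. Wider peaks scored higher over most of the range: Spearman's rho of score and width was 0.53 over the 515 peaks, within the 0.42 to 0.59 of the other autosomes. The relation turned at the narrow end. The 72 peaks of up to 300 bp had a median score of 228, above the 170 of the 170 peaks from 301 to 400 bp. Peaks over 700 bp, of which there were 60, had a median of 640. The narrowest peaks ran from 121563864 to 121564048 (185 bp, score 229), from 82492158 to 82492346 (189 bp, score 332) and from 54595769 to 54595959 (191 bp, score 284), and the first of these is also the last listed peak of the chromosome.

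Some of the widest and weakest peaks lay at the start of the chromosome, where 9 peaks began before 3.2 Mb. The peaks ranking 2 and 3 by width were among them, from 3092737 to 3093936 (1200 bp, score 472) and from 3070227 to 3071395 (1169 bp, score 60.7). So were both of the weakest peaks, the one just named and the peak from 3075631 to 3076003 with a score of 56.5. The third weakest lay elsewhere, from 94937355 to 94937737, with a score of 66.0. Per 100 bp of width, the peak from 3070227 to 3071395 scored 5.19, the lowest of all autosomal peaks, against a chromosome median of 60.5. At the other extreme, the strongest peak scored 603 per 100 bp, and 1 autosomal peak exceeded it. Without these 9 peaks the density ratio was 1.63. Whether they lie in repeated sequence was not tested.

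The scores of the chromosome, like those of the other autosomes, held a regular pattern of numbers. Of the 515 scores, 127, or 24.7%, equalled a Poisson value within 0.006. This value was -10 times the log10 of the probability of exceeding some read number when the background is a whole number from 1 to 8. On the other autosomes 1374 scores, or 23.1%, did so. With 0.1 to 0.9 of a read added to the background, 0.992% of the chromosome 11 scores matched on average. Each of the 127 scores had 1 solution. The solutions are called read numbers here, although the pattern below leaves it unknown whether they are reads as sequenced or a scaled quantity. They ran from 20 to 187, with a median of 34. They did not take all values in between. The values 20, 24, 27, 31, 34, 38, 41, 45, 48, 52, 55, 59 and 62 accounted for all matched scores up to 62, apart from 1 peak at 21. These are the whole parts of successive multiples of a step of 3.48, and 126 of the 127 read numbers (99.2%) lay on that series.

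The step was found on chromosome 11 and then applied to the other autosomes, where 1341 of 1371 read numbers (97.8%) lay on the same series. Of all whole numbers from 20 to 187, 29.2% lie on it. Counted in steps, the matched chromosome 11 peaks held from 6 to 54 units, with a median of 10 and quartiles of 7 and 12.75, and 29 peaks held the smallest number, 6. The most frequent backgrounds were 2 reads, for 46 peaks, and 3 reads, for 38. The read numbers hold only for the matched scores, whose median of 219 was lower than the 253 of the others. Whether 1 unit of the series or 1 whole number stands for 1 sequenced read was not tested, and read counts of the libraries were not used here.

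**Figure D5:**
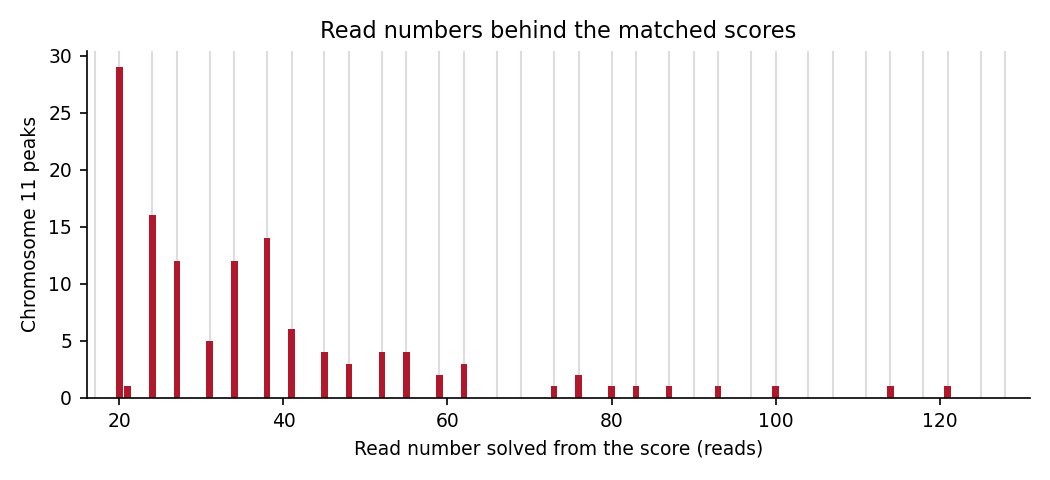
Number of chromosome 11 peaks (y axis) at each read number solved from the score (x axis, labelled in reads, which may be scaled), with grey lines at the whole parts of the multiples of 3.48. Of the 125 peaks drawn, all but the 1 at 21 reads stand on a line, and the tallest bar is 29 peaks at 20 reads; 2 peaks at 156 and 187 reads lie beyond the axis.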

How the data were processed

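The data were 1 peak list with 5 columns, deposited by the authors for the Flag-Hes5 library. Per the labels' protocols, anti-Flag pulldowns from fixed cells were sequenced as single reads of 100 bp. The submitters' processing notes list Bowtie 1.0, HOMER and mm9 but not their roles. Peak names begin with MACS, a peak caller; its version, its settings and any use of the control library were not given in the sources used here. The deposited score is the authors' value per peak, with no stated scale. Read depth is unknown, so intervals cover counting error only.

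Peaks were assigned to windows by their centre, with windows at multiples of 1 or 5 Mb. A chromosome's span was taken between its outermost listed peaks. No test was made and no p-value is given, because there was 1 library and peaks are not replicates. The members and lists were chosen with earlier results of these data known. The peaks named were the 15 of highest score, the 3 highest in each dense window, the 3 widest, narrowest and lowest, the 3 closest pairs, and those beside the 5 longest gaps. The peaks compared for score per width, the step, the stretches and the start of the chromosome were chosen after their values were seen. So were 2 alternatives, leaving out the peaks before 3.2 Mb and sliding the 1 Mb window. The scripts were tested on simulated data. Gene lists were not used, since no mm9 annotation was used here. Python 3.11.15, numpy 2.4.6, pandas 2.3.3, scipy 1.17.1 and matplotlib 3.10.9 were used.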

Additional observations from a re-analysis of the deposited data

How the results depend on the processing

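Of 41 alternative values for 12 results, 28 stayed within the main value's 95% binomial interval or, for counts, the longest gap and rho, within 1.5 times it. A reversal was looked for only in rho, which kept its sign. Of the 41, 28 were planned and 13 were added after values were seen. All 13 added values stayed, most of them from leaving out only 9 of the 515 peaks. The 13 values that moved were thus all among the 28 planned. With scores at or above the list median of 247, which by construction leaves fewer and stronger peaks, chromosome 11 had 255 peaks, a median score of 379, 6.27% of peaks above 1000, a median width of 501 bp, a median spacing of 183 kb, 9.41% of peaks with a centre within 10 kb, 10 peaks in the densest 1 Mb window and 20.8% of scores on a Poisson value, while the density ratio was 1.64. Merging edges within 1 kb left 9.89% of peaks with a centre within 10 kb, and counting neighbours within 1 kb gave 14.8%. The density ratio moved to 1.48, below its interval of 1.51 to 1.81, without the 2 densest 5 Mb windows of chromosome 11. From complete 5 Mb windows it was 1.59, within that interval. Poisson matches fell to 19.6% with backgrounds of 1 to 4 reads and to 16.1% with a tolerance of 0.003, as fewer matches were allowed. A sliding 1 Mb window held at most 21 peaks, and windows shifted by 0.5 Mb at most 16. With the depth unknown, nothing can be said of sites weaker than those listed. No paired analysis was possible because the list describes a single library.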

Other observations

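Many chromosome 11 peaks shared their exact score. The 515 peaks had 436 distinct scores, and 110 peaks had a score that at least 1 other peak of the chromosome also had. Of these 110 peaks, 98 were among those whose score equalled a Poisson value. The most frequent score, 142.14, was given to 15 peaks of chromosome 11 and to 101 peaks of the whole list, and it solves to a read number of 20 over a background of 2. The next, 184.99, was given to 8 and 86 peaks and solves to 24 over a background of 2. Whether these numbers are reads as sequenced or a scaled quantity was not tested. Peaks with the same score cannot be ranked among themselves by score.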
